A study of Mus musculus with 4 samples.

Results

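The genes followed here belong to methionine, betaine and cysteine metabolism and were read in mouse liver nuclei by feeding state and by position in the lobule. They were taken by symbol as Bhmt, Bhmt2, Dmgdh, Mat1a, Gnmt, Ahcy, Cbs, Cth, Cdo1 and Csad, and make up 10 of the 32285 genes in the files. All 10 were present in all 4 libraries and passed the filter on low counts in every comparison. The libraries were 2 preparations of nuclei from livers of fasted mice (food withheld for 16 to 24 h) and 2 from livers of fed mice. Each preparation pooled frozen liver of 8 mice, and nothing but feeding state separates the groups in the labels. Strain, sex, age, genotype and time of day are not stated in these sources. Nor do they say if the preparations of a group used the same mice. All p-values below therefore measure the spread between preparations, which may be technical.

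Methionine is turned into S-adenosylmethionine (SAM), the methyl donor of the cell, by Mat1a. Gnmt spends SAM on glycine, and Ahcy splits the S-adenosylhomocysteine that methylation leaves behind into adenosine and homocysteine. Homocysteine is then either methylated back to methionine, by Bhmt with betaine or by Bhmt2 with S-methylmethionine, or passed through Cbs and Cth to cysteine. Cdo1 oxidises cysteine and Csad carries its product on toward taurine, while Dmgdh breaks down the dimethylglycine that Bhmt leaves. In the liver these enzymes are known mainly from hepatocytes, whose gene activity differs between the portal end of the lobule, where blood enters, and the central vein, where it leaves.

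Bhmt, Bhmt2 and Dmgdh lie side by side on chromosome 13 (GRCm38, the assembly of mm10). Bhmt occupies chr13:93616675-93637961 on the minus strand, Bhmt2 chr13:93655720-93674302 on the minus strand and Dmgdh chr13:93674433-93752833 on the plus strand, a span of 136159 bases in all. Bhmt2 and Dmgdh start head to head with 130 bases between them in the GENCODE annotation. Both stretches below are shown because Bhmt and Dmgdh had the most similar pattern of levels of any pair of members. They are the 250 bases before the RefSeq start of Bhmt (chr13:93637759-93638008, minus strand) and the stretch between the RefSeq starts of Bhmt2 and Dmgdh (chr13:93674303-93674435, plus strand). Both are from RefSeq windows of GRCm38.p6, and capitals mark AGGTCA, the half-site of many nuclear receptors. RefSeq and GENCODE place the start of Bhmt differently, and 203 of the 250 bases lie inside the GENCODE gene.
Bhmt upstream: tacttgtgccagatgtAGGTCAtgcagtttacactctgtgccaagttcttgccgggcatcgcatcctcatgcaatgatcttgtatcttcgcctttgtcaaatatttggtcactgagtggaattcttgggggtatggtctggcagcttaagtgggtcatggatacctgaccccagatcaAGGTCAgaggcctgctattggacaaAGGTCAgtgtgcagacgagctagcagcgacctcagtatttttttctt
Bhmt2 to Dmgdh: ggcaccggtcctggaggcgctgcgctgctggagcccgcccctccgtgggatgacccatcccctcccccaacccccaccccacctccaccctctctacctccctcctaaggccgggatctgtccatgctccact
AGGTCA, searched on both strands, occurred 3 times before the RefSeq start of Bhmt, with 2 of the 3 inside the GENCODE gene. It was absent from the 133 bases between the RefSeq starts of Bhmt2 and Dmgdh. Of 32851 windows of 250 bases, 14.0% held AGGTCA at least once, and no share was taken for the shorter length. The forkhead letters GTAAACA, held by 3.17% of windows, and the cyclic AMP response half-site TGACGT, held by 6.47%, were in neither stretch. Windows were found for 7 members. Those of Ahcy and Gnmt held AGGTCA once each, and a window of Csad held TGACGT once. A match is a description of these letters and not a measured binding site.

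The other members are scattered over the genome. In GRCm38 Mat1a lies at chr14:41105035-41124412 on the plus strand. The remaining members are on minus strands, Gnmt at chr17:46725664-46729168, Ahcy at chr2:155059310-155074497, Cbs at chr17:31608894-31637238, Cth at chr3:157894248-157925077, Cdo1 at chr18:46713193-46728395 and Csad at chr15:102176999-102204724.

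Fasted 1, fasted 2, fed 1 and fed 2 held between 8078755 and 30955600 counts of unique molecular identifiers (UMIs, 1 per captured transcript). After filtering 29829 nuclei remained in 20 clusters, of which 18849 were hepatocytes by the markers Alb, Apob, Ttr, Cps1, Fgb, Cyp2e1 and Hnf4a. Most hepatocyte clusters came almost wholly from 1 library, so cluster and preparation cannot be told apart for most of them. Fed 2 stood apart as the shallowest library, its hepatocytes having a median of 1282 UMIs against 2555 to 3240 in the others, and with 4.61% of its UMIs on Gm42418, a transcript where ribosomal RNA reads gather, against 0.204% to 1.01%. Any 2 libraries shared 11 to 38 cell barcodes. Levels are counts summed over the hepatocytes of a library, scaled to a common library total (CPM). A change passed where the p-value of edgeR's quasi-likelihood test, adjusted over all genes by Benjamini-Hochberg, was under 0.05.

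Whether feeding state moves these genes was read first in all hepatocytes. All 10 members had log2 fold changes above 0, fasted minus fed, as 49.5% of all genes tested did, and for 9 of them both fasted libraries lay above both fed libraries, a pattern shown by 20.6% of all genes tested. Together they held 7791 and 7566 CPM in fasted 1 and fasted 2, against 2300 and 2355 CPM in fed 1 and fed 2. No member passed over all genes in edgeR, where 0.00715% of 13989 genes were called, that is 1 gene. At an unadjusted p under 0.05, 7 members passed in edgeR, against 6.81% of all genes. DESeq2 called 3 members higher, Bhmt, Gnmt and Cth, and 0.5% of all genes in that direction. Among edgeR fits that left out 1 library, members passed only where a fed library was left out, and none without a fasted one. Each such fit leaves its group a lone sample, so sizes are given here. Log2 fold changes over these fits ran from 3.34 to 4.12 for Bhmt and 1.40 to 2.37 for Gnmt. They ran from 1.27 to 1.73 for Cth, 1.20 to 1.54 for Cdo1 and 1.15 to 1.53 for Dmgdh. The members' median log2 fold change was 1.32, and that of all genes tested was -0.006. Because the members were chosen with earlier results of these data known, these comparisons with all genes are a description and no test.

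**Figure D1:**
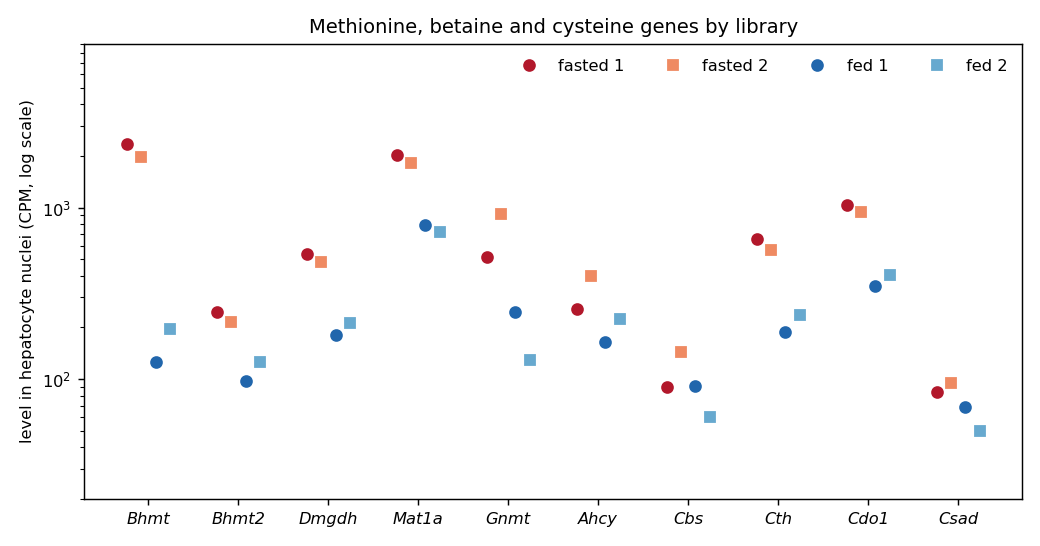
Level of each of the 10 genes in hepatocyte nuclei, in CPM on a log scale, with 1 point per library (fasted 1 and 2 in reds, fed 1 and 2 in blues). The groups are separate for every gene but Cbs, and the gap is widest for Bhmt, at 2340 and 1981 CPM in fasted nuclei against 126 and 197 CPM in fed nuclei.

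Bhmt, which methylates homocysteine with betaine, stood farthest apart. It was at 2340 CPM in fasted 1 and 1981 CPM in fasted 2, against 126 CPM in fed 1 and 197 CPM in fed 2. Means were 2161 ± 254 CPM in fasted and 162 ± 50.1 CPM in fed nuclei (SD, n = 2 each). The distance between the groups was far wider than the distance within either. Its log2 fold change was 3.69 (SE 0.41; edgeR adjusted p = 0.173), the 23rd highest of 13989 genes and the 7th lowest by p. In DESeq2 its adjusted p was 4.81e-13. Removal of a fed library in turn gave 3.34 without fed 1 and 4.12 without fed 2, and Bhmt then passed in edgeR (adjusted p = 5.34e-04 and 3.45e-08). It did not pass without fasted 1 (edgeR adjusted p = 0.0626) or without fasted 2 (0.150), and over 14 alternatives its adjusted p ran from 1.33e-15 to 1.0. Shares of nuclei with a Bhmt UMI were also taken after thinning every nucleus to 800 UMIs. They were 69.6% and 61.3% in fasted 1 and fasted 2, against 10.2% and 14.4% in fed 1 and fed 2. Endothelial nuclei of fed 1 had the same share, 10.2%, and how much of the fed 1 level is expression was not determined.

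Both neighbours of Bhmt had positive fold changes that were smaller and did not pass. Bhmt2, the S-methylmethionine enzyme, was at 246 and 215 CPM in fasted nuclei against 97.3 and 125 CPM in fed nuclei (log2 fold change 1.01, SE 0.32; edgeR adjusted p = 0.633). Dmgdh, which oxidises the dimethylglycine that Bhmt leaves, was at 538 and 482 CPM in fasted nuclei against 180 and 213 CPM in fed nuclei (1.33, SE 0.31; edgeR adjusted p = 0.532). Fasted and fed libraries did not overlap for either gene. Bhmt and Bhmt2 are similar paralogs, and reads that fit both could have been left out or given to the wrong gene. The values of both are therefore uncertain.

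Bhmt and Dmgdh each overlap an antisense gene. No source used here says if strand was used in counting, so reads of such pairs may not have been told apart. Gm15622, antisense over 3252 bases of Bhmt, was at 332 and 186 CPM in fasted nuclei against 10.7 and 12.8 CPM in fed nuclei (log2 fold change 4.41, SE 0.43; edgeR adjusted p = 0.151). AW495222, antisense over 12994 bases of Dmgdh, was at 20.6 and 4.91 CPM in fasted nuclei against 1.96 and 0.885 CPM in fed nuclei (3.07, SE 0.82; edgeR adjusted p = 0.557). Gm15622 and AW495222 thus stood higher in both fasted libraries, like the genes they overlap, and passed in DESeq2 but not in edgeR.

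Of the genes that make, spend and clear SAM, DESeq2 called Gnmt. Mat1a, the liver's SAM synthetase, was at 2024 and 1822 CPM in fasted nuclei against 790 and 720 CPM in fed nuclei (1.31, SE 0.30; edgeR adjusted p = 0.532). The groups were well apart and the libraries within each close together. Gnmt, the glycine methyltransferase that uses up SAM, was at 517 and 917 CPM in fasted nuclei against 247 and 130 CPM in fed nuclei (1.92, SE 0.46; edgeR adjusted p = 0.532). It separated the groups too, but its libraries differed widely within each group, and Gnmt passed in edgeR without fed 1 or without fed 2. It did not pass without fasted 1 (edgeR adjusted p = 0.443) or without fasted 2 (1.40, edgeR adjusted p = 1.0), and over 14 alternatives its adjusted p ran from 1.92e-04 to 1.0. Ahcy, which hydrolyses S-adenosylhomocysteine, was at 255 and 397 CPM in fasted nuclei against 165 and 223 CPM in fed nuclei (0.71, SE 0.39; edgeR adjusted p = 0.806). The gap between fasted 1 and fed 2 was smaller than the gap between the fasted libraries, and without fasted 2 its fold change was 0.31. Gm45609, which lies antisense over 317 bases of Ahcy, was at 54.5 and 62.4 CPM in fasted nuclei against 18.8 and 9.29 CPM in fed nuclei (2.04, SE 0.42; edgeR adjusted p = 0.467, DESeq2 adjusted p = 0.00534).

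Cth and Cbs carry homocysteine to cysteine, and the difference between their fold changes was not tested. Cth, which releases cysteine from cystathionine, was at 656 and 568 CPM in fasted nuclei against 188 and 235 CPM in fed nuclei (1.49, SE 0.32; edgeR adjusted p = 0.502, DESeq2 adjusted p = 0.0379). Cbs, which joins homocysteine and serine in the step before, was at 90.1 and 143 CPM in fasted nuclei against 90.5 and 59.9 CPM in fed nuclei (0.62, SE 0.38; edgeR adjusted p = 0.851). Fasted 1 lay just under fed 1, so the groups overlapped for this gene alone. Without fasted 2 the fold change of Cbs was 0.20.

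Cdo1 and Csad act in the breakdown of cysteine, and neither passed in edgeR or DESeq2. Cdo1, the dioxygenase that commits cysteine to oxidation, was at 1041 and 946 CPM in fasted nuclei against 348 and 402 CPM in fed nuclei (1.36, SE 0.31; edgeR adjusted p = 0.532). Csad, the decarboxylase of the taurine branch, was at 84.1 and 94.8 CPM in fasted nuclei against 68.3 and 50.0 CPM in fed nuclei (0.57, SE 0.31; edgeR adjusted p = 0.806), which made it the member with the smallest fold change. Both genes separated the groups. Csad overlaps Zfp740 on the opposite strand over 1476 bases, and Zfp740 was at 64.5 and 79.9 CPM in fasted nuclei against 63.7 and 116 CPM in fed nuclei (-0.37, SE 0.42; edgeR adjusted p = 0.968).

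Of 10 lists of markers of other cells, 2 separated the groups in the hepatocyte sums. Summed stellate markers were lower in both fasted libraries, at 26.4 and 13.2 CPM, against 55.6 and 63.7 CPM in fed ones. Summed markers of T or NK cells were at 1141 and 923 CPM in fasted hepatocytes against 532 and 229 CPM in fed nuclei. Tox alone gave 1116 and 907 CPM of that in fasted nuclei against 525 and 218 CPM in fed, and without it the list was at 25.4 and 16.1 CPM against 6.41 and 10.9 CPM. Themis, a regulator of T cell development, held most of the rest in fasted nuclei, at 20.7 and 10.0 CPM, against 2.85 and 3.25 CPM in fed nuclei. Cd3e, a defining T cell marker, was at 0.0952 and 0.671 CPM in fasted and at 0.297 and 0 CPM in fed nuclei. Summed endothelial markers overlapped between the groups, at 27.8 and 8.57 CPM in fasted nuclei against 23.8 and 58.4 CPM in fed nuclei. The part of other cells in the members' differences was not tested.

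Position in the lobule was read from a score of landmark genes, 9 pericentral ones such as Glul and Cyp2e1 and 10 periportal ones such as Cyp2f2 and Hal, none of them a member. Only hepatocytes with at least 1500 UMIs were scored. They numbered 4818 of 5408, 4234 of 4571, 4341 of 5063 and 1571 of 3807 in fasted 1, fasted 2, fed 1 and fed 2. Results by zone thus leave out most hepatocytes of fed 2. Within each library scored nuclei were divided into 3 zones of equal size, and counts were summed per zone. Of the 10 members, Csad rose toward the central vein and 5 fell, Cbs, Cth, Bhmt, Gnmt and Bhmt2. Over all 12278 genes tested 8.06% were called higher and 7.82% lower in pericentral nuclei in edgeR, and DESeq2 called 11.3% in either direction. The members' median log2 difference, pericentral minus periportal, was -0.215, against -0.007 over all genes tested. As for feeding state, this describes genes that were chosen with earlier results of these data known. Pericentral nuclei were also deeper, with median UMIs of 3435, 3745, 3289 and 2443 in fasted 1, fasted 2, fed 1 and fed 2, against 2808, 3069.5, 2554 and 2207.5 in periportal nuclei. On sums of counts thinned to 1500 UMIs per nucleus, the same 6 members and Mat1a were called.

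**Figure D2:**
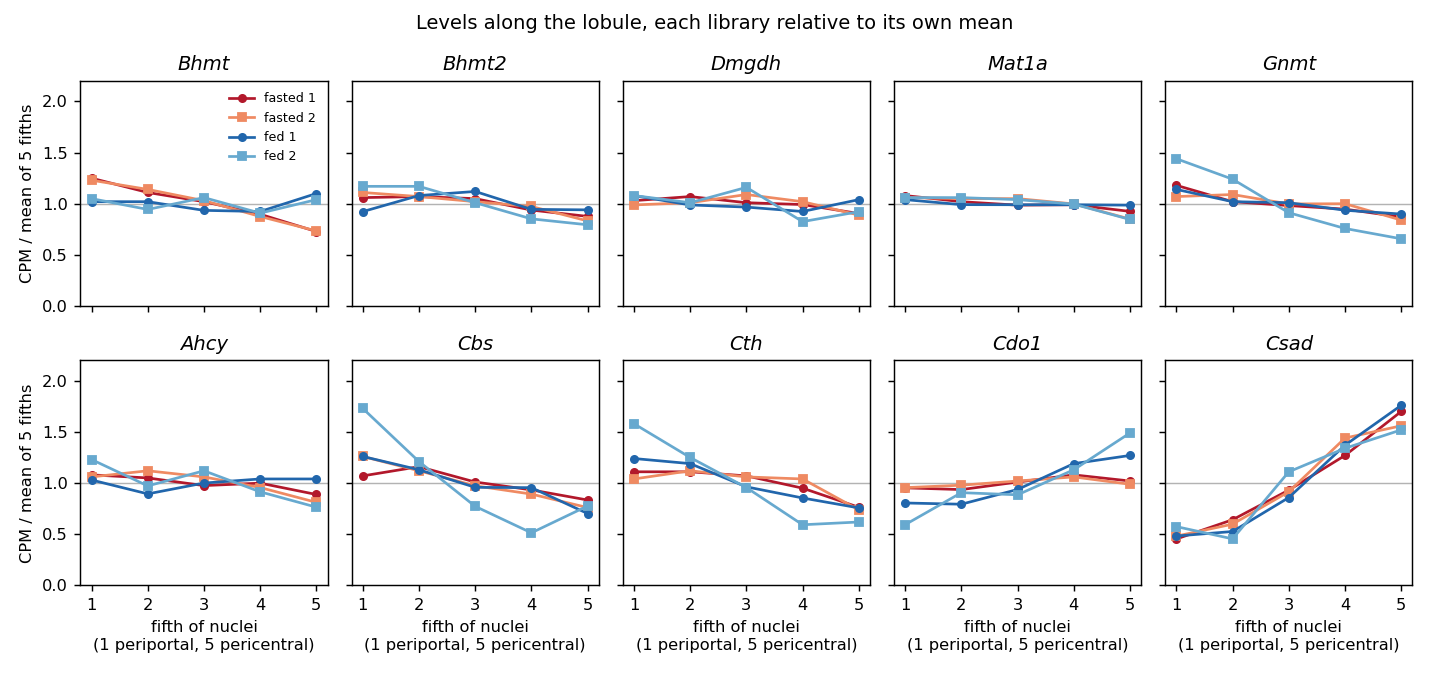
Level of each gene over 5 equal bins of hepatocytes ordered from periportal (1) to pericentral (5), as CPM over the mean of the library's 5 bins. Csad ends higher in all 4 libraries, Bhmt declines in fasted and stays level in fed libraries, and Cdo1 climbs in fed and stays level in fasted libraries.

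Csad had the steepest course and the only one toward the central vein that passed. From the periportal over the middle to the pericentral zone it was at 39.1, 75.9 and 125 CPM in fasted 1 and at 46.2, 87.9 and 140 CPM in fasted 2. In fed 1 it was at 31.4, 55.7 and 108 CPM, and in fed 2 at 24.2, 44.1 and 67.4 CPM. Every library rose at each step. The pericentral minus periportal log2 difference was 1.66 (SE 0.08; edgeR adjusted p = 5.50e-10), the 195th highest of 12278 genes, and Csad was called in all 14 alternatives run, at 1.35 to 2.22. Its difference was 1.63 (SE 0.09) in fasted and 1.72 (SE 0.13) in fed libraries. Zfp740, on the strand opposite, had 0.30 (SE 0.08, edgeR adjusted p = 0.0152, DESeq2 adjusted p = 0.0745). It too was higher at the central end in all 4 libraries.

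Cbs and Cth ran the other way. Cbs was at 78.8, 115, 70.0 and 37.9 CPM in the pericentral zones of fasted 1, fasted 2, fed 1 and fed 2, against 105, 176, 114 and 88.9 CPM in the periportal zones. All 4 libraries were lower at the central end (log2 difference -0.64, SE 0.09; edgeR adjusted p = 6.29e-05), and the call was lost only without library as a block. Cth was at 567, 479, 150 and 128 CPM in pericentral zones against 714, 600, 231 and 303 CPM in periportal ones, in the same order of libraries. It was lower at the central end in all 4 as well (-0.56, SE 0.14; edgeR adjusted p = 0.0465), close to the threshold. The call of Cth was lost without fed 1, with even-numbered landmarks alone, without the block and with background taken off.

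Bhmt, Gnmt and Bhmt2 had smaller differences than Cbs and Cth over all 4 libraries, while in fasted libraries alone Bhmt had the lowest value of the members, -0.59, beside -0.52 for Cbs and -0.33 for Cth. Bhmt was at 1908, 1548, 120 and 183 CPM in pericentral zones against 2848, 2338, 130 and 191 CPM in periportal zones (-0.39, SE 0.09; edgeR adjusted p = 0.00837). Both fasted libraries had a wide gap between the ends, and the fed ones barely differed. In fed 1 the thinned share of hepatocytes with a Bhmt UMI was no higher than that of endothelial nuclei. Per nucleus and unthinned, fed 1 hepatocytes held more, 0.421 Bhmt UMIs against 0.154. How much of the fed 1 step of Bhmt is expression was not determined. Its call was lost without fasted 1 (edgeR adjusted p = 0.0787; 5.33e-08 to 1.0 over 14 alternatives), without fasted 2 (0.0844), with the outer of 5 bins, with odd-numbered landmarks, without the block and with background taken off. Gnmt, at 463, 832, 222 and 75.2 CPM against 579, 984, 270 and 140 CPM, had -0.36 (SE 0.08; edgeR adjusted p = 0.00370). Bhmt2 had -0.25 (SE 0.07; edgeR adjusted p = 0.0207). Both were lower at the central end in all 4 libraries, and Gm15622, antisense to Bhmt, had -0.61 (SE 0.07; edgeR adjusted p = 7.81e-06).

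Gnmt lost its call with even-numbered landmarks, without the block and with background taken off, and Bhmt2 in DESeq2, with even-numbered landmarks, without the block, without fasted 1 and without fasted 2. Ahcy, Mat1a and Dmgdh had differences of -0.18, -0.16 and -0.12 (SE 0.08, 0.06 and 0.05; edgeR adjusted p = 0.130, 0.0766 and 0.192). These 3 stood lower at the central end in 3, 4 and 4 libraries and did not pass. Cdo1 had 0.42 (SE 0.15; edgeR adjusted p = 0.138) and stood higher at the central end in all 4 libraries. Some alternatives called these 4 genes. Cdo1 passed in DESeq2 (adjusted p = 0.0227), without the low-count filter and without fasted 2. Mat1a passed with the outer of 5 bins, odd-numbered landmarks, thinned sums and without fed 1. Ahcy passed with the outer of 5 bins, odd-numbered landmarks and without fed 1, and Dmgdh with odd-numbered landmarks.

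**Figure D3:**
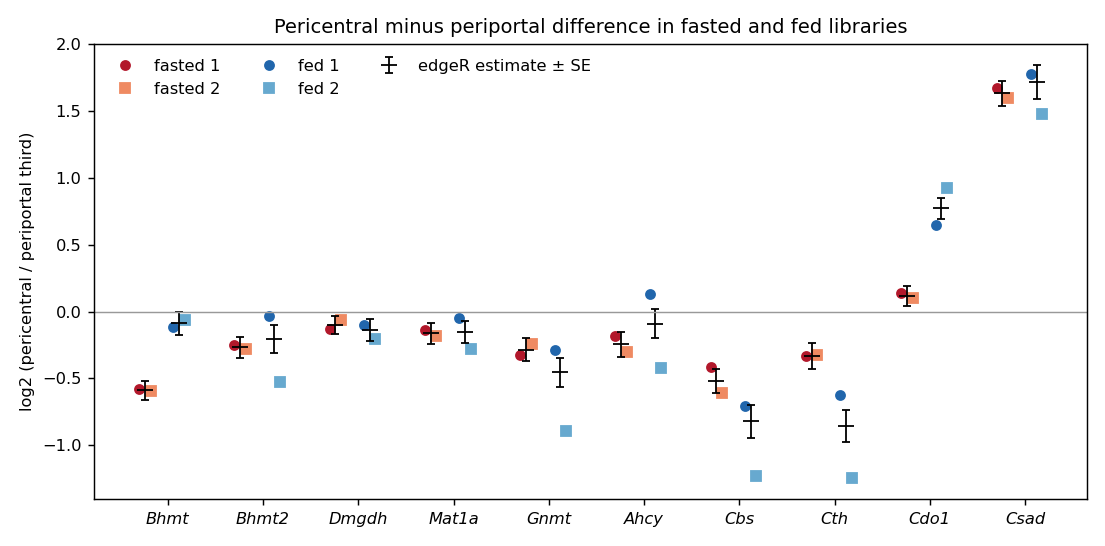
Log2 ratio of pericentral over periportal level per library (points, fasted in reds and fed in blues), with edgeR's estimate ± SE for fasted and for fed libraries in black. Cdo1 is at 0.12 in fasted and 0.77 in fed, Bhmt at -0.59 and -0.09, Cth at -0.33 and -0.86, and Csad at 1.63 and 1.72.

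The next comparison asked whether the step from portal to central differed between fasted and fed libraries. Only Cdo1 among the 10 members passed, where 0.147% of 12278 genes were called in edgeR and 0.0733% in DESeq2. Cdo1 was at 1076 and 967 CPM in pericentral zones of fasted 1 and fasted 2, against 977 and 899 CPM in their periportal zones. In fed 1 and fed 2 it was at 428 and 522 CPM in pericentral zones, against 273 and 275 CPM in periportal zones. Fed libraries had the wider step, and the 2 fasted libraries had nearly none. The log2 pericentral minus periportal difference was 0.12 (SE 0.07) in fasted and 0.77 (SE 0.08) in fed, so that the difference of differences, fasted minus fed, was -0.65 (SE 0.11; edgeR adjusted p = 0.0174).

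Seen from the other side, the fasted over fed ratio of Cdo1 was 3.42 in the periportal zone, 3.1 in the middle and 2.15 in the pericentral zone. The result for Cdo1 was called in 9 of 13 alternatives with the same sign in all 13, from -0.91 to -0.47. It was lost without fasted 1 (-0.70, edgeR adjusted p = 0.333), without fasted 2 (-0.63, 0.143), with odd-numbered landmarks (-0.47, 0.0929) and with background taken off (-0.91, 0.191). The range of its adjusted p over the alternatives was 2.47e-06 to 0.333.

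Bhmt and Cth had the next largest differences of this kind, and neither passed. Bhmt's step was -0.59 (SE 0.07) in fasted and -0.09 (SE 0.09) in fed libraries, a difference of -0.50 (SE 0.11; edgeR adjusted p = 0.124). Its fasted over fed ratio was 16.2 in the periportal zone, 15.2 in the middle and 11.4 in the pericentral zone. The fed 1 part of these values has the limit given above. Bhmt passed in 5 of 13 alternatives, those without the low-count filter, with the outer of 5 bins, with odd-numbered landmarks, without fed 2 and with thinned sums. Cth's step was -0.33 (SE 0.10) in fasted and -0.86 (SE 0.12) in fed, a difference of 0.52 (SE 0.15; edgeR adjusted p = 0.334), with fasted over fed ratios of 2.46, 3.59 and 3.77 from the periportal to the pericentral zone. It passed without the low-count filter and without fed 1.

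Cbs had a difference of 0.30 (SE 0.15) and Gnmt of 0.17 (SE 0.14). The other 5, Ahcy, Csad, Bhmt2, Mat1a and Dmgdh, ran from -0.16 to 0.04 with SE between 0.11 and 0.16, and all 5 changed sign in at least 1 alternative, as Gnmt did. Ahcy passed without fed 2 (-0.39). At SE of this size, small differences were not detectable at this number of libraries.

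Members were also found in nuclei of other cell types, where hepatocyte RNA free in the suspension can be captured. Mean Bhmt UMIs per nucleus were 9.09, 8.39, 0.421 and 0.351 in hepatocytes of fasted 1, fasted 2, fed 1 and fed 2, against 1.43, 1.12, 0.154 and 0.058 in endothelial nuclei. The median member had 0.145, 0.135, 0.159 and 0.288 of the hepatocyte level in endothelial nuclei, per nucleus and in the same order. Of the 50 pairs of a member and another cell type, 0 exceeded all 7 hepatocyte markers in all 4 libraries in CPM relative to hepatocytes. In single libraries, 0 to 7 members exceeded all markers in a given type. In fed 1 Bhmt exceeded them in all 5 types, with CPM relative to hepatocytes of 1.21 to 1.77.

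**Figure D4:**
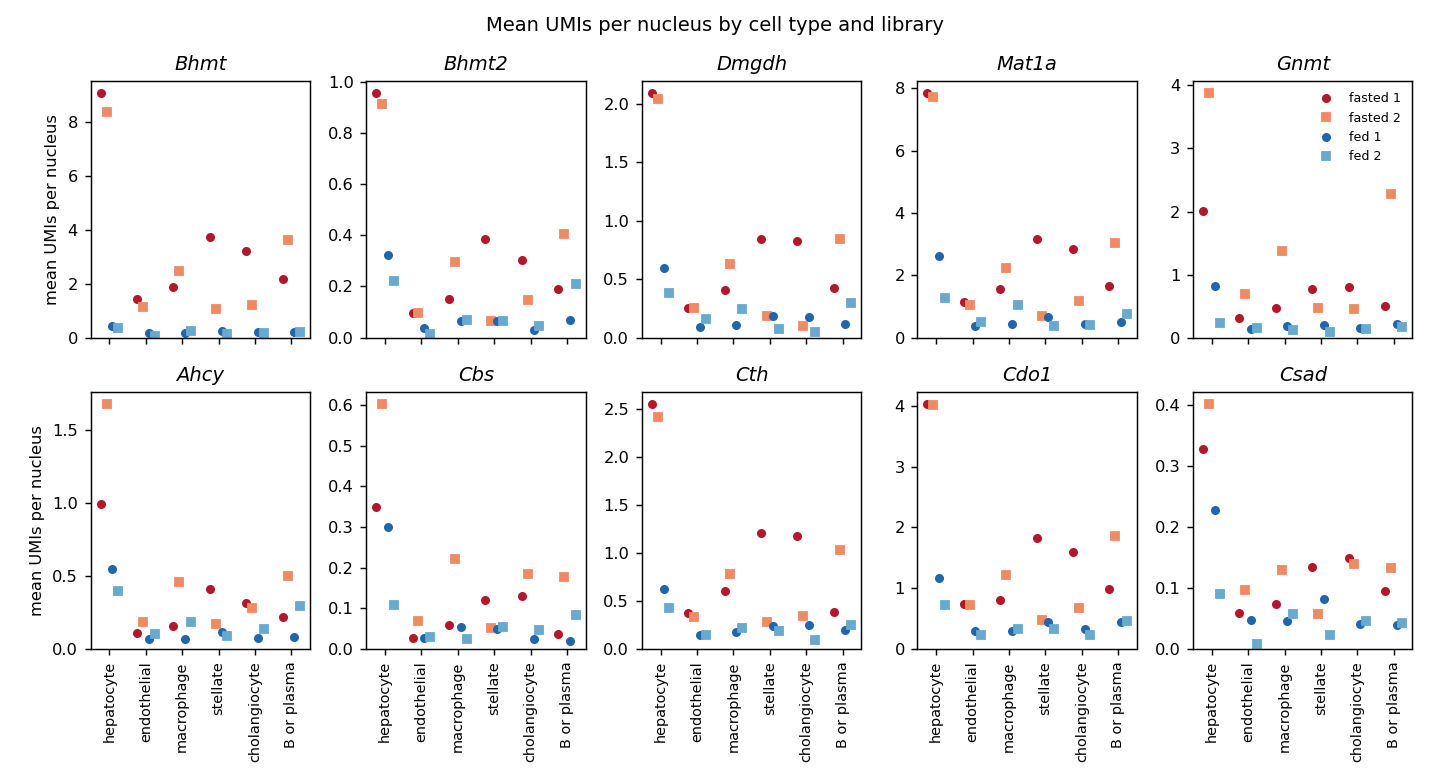
Mean UMIs per nucleus of each gene by cell type, with 1 point per library (fasted 1 and 2 in reds, fed 1 and 2 in blues). Of the 6 types shown, hepatocytes are highest for every gene and library, for Bhmt at 9.09 and 8.39 in fasted and 0.421 and 0.351 in fed.

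Endothelial CPM of Bhmt relative to hepatocytes was 1.34 in fed 1 and 0.309 in fed 2. After thinning to 800 UMIs, 10.2% of fed 1 hepatocytes had a Bhmt UMI (95% exact interval 9.38% to 11.1%; unthinned 24.8%, median 2555 UMIs), and so had 10.2% of fed 1 endothelial nuclei (8.54% to 12.1%; unthinned 13.9%, median 839). The thinned share in fed 1 hepatocytes was thus no higher than in a type that should lack the gene. The types differed in depth before thinning, so equal thinned shares cannot tell expression from captured free RNA. Per nucleus and unthinned, fed 1 hepatocytes held 0.421 Bhmt UMIs against 0.154 in endothelial nuclei. In fed 2 the shares were 14.4% in hepatocytes and 3.64% in the 55 endothelial nuclei deep enough. In fasted 1 and fasted 2 the shares were 69.6% and 61.3% in hepatocytes, against 54.7% and 46.3% in endothelial nuclei. Thinning left out 61, 18, 43 and 584 hepatocytes and 1118, 331, 844 and 83 endothelial nuclei of fasted 1, fasted 2, fed 1 and fed 2. When the endothelial level was taken off per nucleus, the log2 fold change of Bhmt, fasted minus fed, was 3.58. No gene passed in that setting, and intervals cover counting error only.

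**Figure D5:**
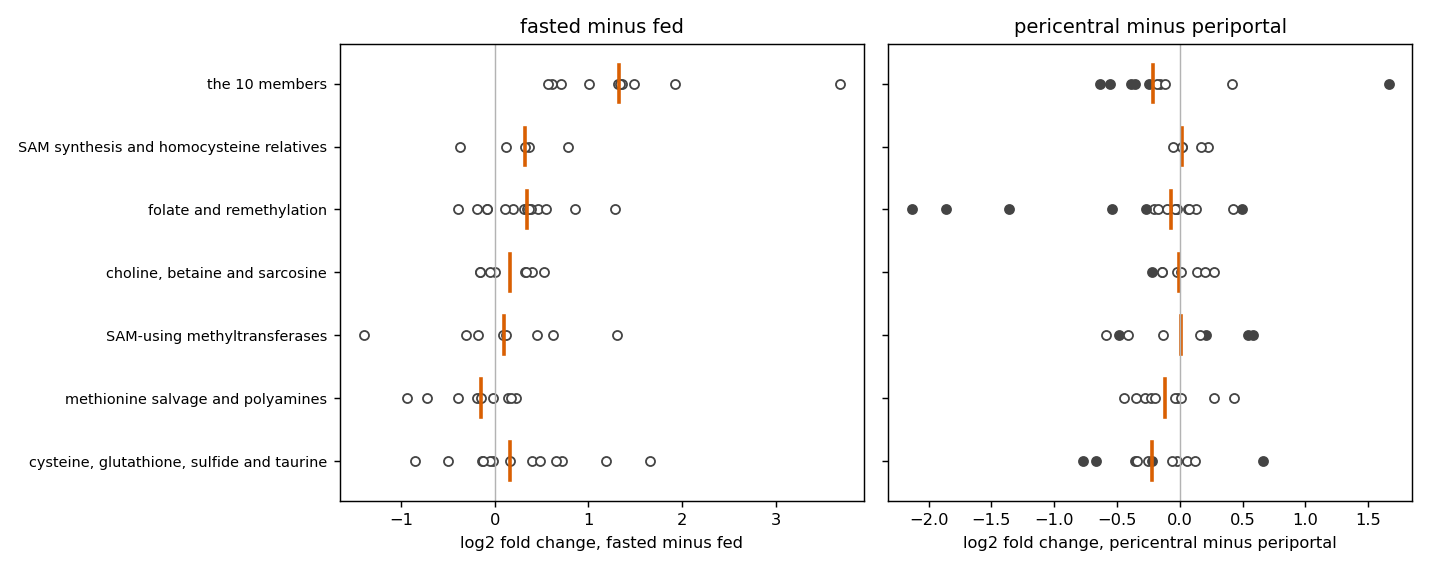
Log2 fold changes of the 10 members and of 6 lists of related genes, fasted minus fed on the left and pericentral minus periportal on the right, with filled points for genes called in edgeR and orange bars for medians. The members' median is 1.32 for fasted minus fed, above the medians of all 6 lists, which run from -0.149 to 0.341. Members and lists were chosen with earlier results of these data known.

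Related genes outside the 10 were read in 6 lists of 63 genes, 60 of which were tested by feeding state. These lists too were chosen with earlier results of these data known, so shares called are a description. None of the 60 passed in edgeR or in DESeq2, and 3 did at an unadjusted p under 0.05, As3mt, Gldc and Got1, a share of 5.0% that is below the 6.81% of all genes. Fold changes were above 0 for 36 of them, with a median of 0.153. Got1, an aminotransferase that also acts on cysteine sulfinate, was at 353 and 687 CPM in fasted nuclei against 216 and 113 CPM in fed nuclei (1.66, SE 0.48; edgeR adjusted p = 0.590). Gldc, the glycine cleavage decarboxylase, had 1.29 (SE 0.33; edgeR adjusted p = 0.557) and As3mt, an arsenic methyltransferase that uses SAM, 1.31 (SE 0.32; edgeR adjusted p = 0.532).

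By list, SAM synthesis and homocysteine relatives had a median of 0.325, with Mat2a, the SAM synthetase of other tissues, at 0.78, its partner Mat2b at 0.36 and Ahcyl2 at -0.37. Folate and remethylation genes had 0.341, with Mthfs at 0.54. For choline, betaine and sarcosine genes it was 0.163, with Pipox at 0.53, the betaine transporter Slc6a12 at 0.40 and Chkb at 0.33. SAM-using methyltransferases had 0.104, with Inmt at -1.40 and Nnmt at 0.62. Methionine salvage and polyamine genes had -0.149, with the polyamine synthases Sms at -0.94 and Srm at -0.72 and Mri1 at -0.39. Cysteine, glutathione, sulfide and taurine genes had 0.165, with Ado, which makes hypotaurine from cysteamine, at 1.19 and Gclc, the limiting enzyme of glutathione synthesis, at -0.85. Ado (SE 0.95) rested on 36, 11, 5 and 5 UMIs in fasted 1, fasted 2, fed 1 and fed 2. None of these named genes passed, and Mat2b, Chkb, Srm, Sms, Inmt and Mri1 changed sign when 1 library was left out.

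Along the lobule 58 of these genes were tested, and in edgeR 5 were called higher and 11 lower in pericentral nuclei. The share called higher, 8.62%, was near the 8.06% of all genes, and the share called lower was 19.0% against 7.82%. DESeq2 called 3 higher and 10 lower. Folate genes gave the largest differences, with the mitochondrial enzymes Gldc at -2.13 (SE 0.09) and Mthfd1l at -1.86 (SE 0.10) and the histidine-linked Ftcd at -1.36 (SE 0.16). Aldh1l1 (-0.54), Shmt1 (-0.27), Sqor (-0.77), Got1 (-0.66), As3mt (-0.49), Gss (-0.36), Baat (-0.22) and Chka (-0.22) were also lower at the central end. Among those higher there were the sulfide enzyme Tst (0.66), the methyltransferases Inmt (0.58) and Pemt (0.21), and Mthfd2 (0.50). DESeq2 did not call Pemt, Mthfd2, Baat or Chka (DESeq2 adjusted p = 0.0642, 0.195, 0.0946 and 0.164). Named for size and not called in edgeR were Nnmt (-0.58), Sms (-0.45), Enoph1 (0.43), Mtap (-0.35), Chkb (0.27), Mat2b (0.22), Pipox (0.20), Ahcyl1 (0.17) and Mat2a (-0.06), of which DESeq2 called Nnmt (adjusted p = 7.93e-04).

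In the difference between fasted and fed steps Ftcd was the only list gene called, at -0.67 (SE 0.11; edgeR adjusted p = 0.0158). Fasted libraries had the steeper decline of Ftcd toward the central vein, -1.67 (SE 0.08) against -0.997 (SE 0.08) in fed. Of the genes named next, Srm, Sms and Enoph1 held only 5, 15 and 25 UMIs in all fed 2 hepatocytes. Sms (-1.68), Enoph1 (-1.30), Ethe1 (0.64), Nnmt (0.59), Got1 (0.54), Mthfd2l (-0.48), Gclc (-0.47), Mat2b (-0.44), Srm (0.40), Mthfd2 (-0.39), Hnmt (0.39), Slc44a1 (-0.34), Pipox (-0.31), Tpmt (0.28), Chka (0.25), Mat2a (-0.18) and Slc25a26 (-0.07) had the largest values of their lists and did not pass.

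Likeness between genes was measured as Pearson's r of log2(CPM + 1) over 12 points, 4 libraries by 3 zones, which share libraries and depth and are given as a description. Bhmt and Dmgdh had r = 0.991, Bhmt2 and Dmgdh 0.975 and Bhmt and Bhmt2 0.967, and Bhmt and Mat1a had 0.981. Csad had at most 0.589 with another member (Cdo1), and -0.0652 with Cbs. Among 3694 genes at a mean of at least 50 CPM, the most alike to Bhmt were Efna5 and Gm15622 (0.993 each) and Dmgdh (0.991). Dmgdh was most like Bhmt, Gm15622 (0.988) and Fam13a (0.985). Bhmt2 was most like Fam13a (0.980), Gm16157 (0.978) and Dmgdh, and Mat1a most like Gstz1 (0.987), Gm15622 (0.985) and Slc27a2 (0.984).

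Gnmt came closest to Cdip1 (0.989), Slc25a15 (0.986) and Klf3 (0.983), and Ahcy to Aldh8a1 (0.985), Cpt1a (0.981) and Agpat3 (0.978). Cbs was most like Aldh1l1 (0.984), Ass1 (0.951) and Nnmt (0.942), and Ass1 is itself one of the periportal landmarks. Cth was most like Azgp1 (0.989), Gm33543 (0.975) and Gm47719 (0.971). Cdo1 came closest to Cyp4a10 (0.978), Hsdl2 (0.976) and Cyp4a14 (0.976), and Csad to Rbms1 (0.981), Lhpp (0.972) and Eps8l2 (0.966).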

How the data were processed

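The deposited matrices hold raw UMI counts per gene and barcode, which the authors made with Cell Ranger 6.0 on mm10, per the submitters' processing notes. Between 13.2% and 17.0% of stored entries were 0, so some entries may have been lowered by a step not given in the sources used here. Whether intronic reads were counted is also not given.

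Nuclei were kept at 500 or more genes and up to 5% mitochondrial UMIs, after the top Scrublet scores were removed at 0.8% per 1000 barcodes (automatic thresholds marked 1778, 1, 1 and 0). Clusters came from scanpy 1.11.5 (2000 variable genes, 30 components, 15 neighbours, Leiden resolution 1), named by fixed markers. Hepatocyte counts summed to 21008166, 19364610, 16852299 and 6779076 in fasted 1, fasted 2, fed 1 and fed 2. The score used 9 of 12 pericentral and 10 of 11 periportal landmarks, those in at least 2% of nuclei of every library, on nuclei thinned to 1500 UMIs (4818, 4234, 4341 and 1571 nuclei). Scores from odd- and even-numbered landmarks correlated across nuclei at 0.538 to 0.599.

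Sums per library were tested with edgeR 4.0.16 (robust quasi-likelihood, TMM, filterByExpr), with library as a block for zones, and with DESeq2 1.42.0. SE is the log2 fold change divided by the square root of F. Libraries of a group differed beyond counting noise (chi-square per degree of freedom 87.7 in fasted and 129 in fed). The members and lists were chosen with earlier results of these data known. From each list the text names genes called and the 3 with the largest change, and for each member the 3 most alike, but some of these are not reported here.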

Additional observations from a re-analysis of the deposited data

Results flagged for a closer look

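The lobular step of Cdo1 differed between feeding states by a test of the difference itself. Its log2 pericentral minus periportal difference was 0.12 in fasted and 0.77 in fed libraries, a difference of -0.654 (edgeR adjusted p = 0.0174; lower in both fasted libraries, 0.139 and 0.105, than in both fed ones, 0.648 and 0.924). DESeq2 called it as well (adjusted p = 0.0491).

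The folate gene Ftcd showed a difference of -0.672 between fasted and fed steps (edgeR adjusted p = 0.0158, DESeq2 adjusted p = 0.10). It was at 255 and 204 CPM in pericentral zones of fasted 1 and fasted 2 against 743 and 707 CPM in their periportal zones, and in fed 1 and fed 2 at 247 and 216 CPM against 503 and 422 CPM. The call of Ftcd was lost in DESeq2, with odd-numbered landmarks (-0.45, edgeR adjusted p = 0.0929), without fasted 1 (-0.82, 0.0821), without fasted 2 (-0.54, 0.431) and with background taken off (-0.68, 0.568).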

How the results depend on the processing

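With 2 libraries per group and fed 2 at 6779076 hepatocyte counts, small differences are beyond reach, and leaving out 1 library leaves its group with a lone sample assumed to vary like the other group. All 10 members kept a positive fasted minus fed fold change in all 14 alternatives, and all 10 kept the sign of their lobular difference in 14. Taking off the endothelial background and summing thinned counts by zone were chosen after seeing the data.

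Against 1 gene called by feeding state, 272 were called without the low-count filter (149 higher, 123 lower), 157 by DESeq2, 20 with the replicate block (8 higher, 12 lower, Bhmt among them) and 0 with stored zeros counted as 1, with nuclei thinned to 1500 UMIs or with background taken off. Leaving out 1 library gave 3 to 330. Numbers 1 and 2 were not taken as pairs, since no label says so, and deviations of same-numbered libraries correlated at 0.425. Without the low-count filter 6 members passed. For zones, 98 genes were called without the library block (67 higher, 31 lower, Csad the only member) against 1950. Against 18 genes in the difference of steps, 81 were called without the low-count filter, 9 by DESeq2, 45 with the outer of 5 bins, 63 with even-numbered landmarks, 1 with background taken off, and 7 to 247 when 1 library was left out. With stored zeros counted as 1, 1 pair exceeded the hepatocyte markers, Gnmt in endothelial nuclei.

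Signs turned in some settings, and the causes were not tested. Fasted minus fed, Ahcyl2 had 0.082 with background taken off, and leaving out 1 library gave -0.002 to 0.64 for Mat2b, -0.048 to 0.84 for Chkb, -1.52 to 1.64 for Srm, -1.58 to 0.38 for Sms, -0.79 to 0.21 for Zfp740, -2.20 to 0.51 for Inmt and -0.94 to 0.15 for Mri1. For zones Mat2a had 0.025 with the outer of 5 bins, 0.012 with even-numbered landmarks, 0.15 with background taken off and 0.016 with thinned sums, and Sms had 0.075 with background taken off and -1.13 to 0.016 when 1 library was left out. For the difference of steps, Csad had 0.006 and Dmgdh -0.084 with the outer of 5 bins, Ethe1 -0.004 with odd-numbered landmarks, and Mat1a 0.001, Slc25a26 0.024 and Mthfd2l 0.021 with even-numbered ones. With background taken off Csad had 0.16 and Slc44a1 1.87, and with thinned sums Mat1a had 0.004, Slc25a26 0 and Srm -0.046. Leaving out 1 library gave -0.93 to 0.78 for Srm, -0.13 to 0.12 for Mat1a, -0.24 to 0.11 for Slc25a26, -0.25 to 0.27 for Bhmt2, -0.39 to 0.18 for Ahcy, -0.16 to 0.16 for Csad, -0.78 to 0.13 for Mthfd2l, -0.089 to 0.55 for Hnmt, -0.016 to 0.62 for Gnmt and -0.013 to 0.11 for Dmgdh.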

Other observations

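Hepatocyte clusters, which were formed from all genes and are described without a test, differed in the members' levels within a library. In fed 1 a cluster of 1738 nuclei was led by acute-phase genes such as Saa2, Saa1 and Lcn2. There Cdo1 was at 196 CPM, against 408 CPM in the largest fed 1 cluster of 2700 nuclei, and Csad was at 42.5 CPM against 68.7 CPM. Bhmt went the other way, at 167 CPM against 93.6 CPM, and Mat1a was at 843 CPM against 769 CPM. After thinning, no larger share of fed 1 hepatocytes than of fed 1 endothelial nuclei had a Bhmt UMI. How much of the Bhmt difference between these clusters is expression was not determined.

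A cluster led by Slc22a3, Slc1a2 and Glul, which mark the hepatocytes at the central vein, drew on 3 libraries. In its nuclei Bhmt was at 1676 CPM in fasted 1, 1245 CPM in fasted 2 and 172 CPM in fed 2, and Csad was at 129, 153 and 92.2 CPM in the same order. In the largest clusters of fasted 1 and fasted 2, led by other genes, Bhmt was at 2758 and 2332 CPM and Csad at 45.7 and 51.4 CPM. Most of these clusters came from 1 library, so clusters of different libraries were not compared.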
